A study of Mus musculus with 6 samples.

Results

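The Cd274-positive melanoma cells are the 85 cells, of 507 retained cells from 6 mouse tumors, chosen by their Cd274 value, which was above 0 TPM (the share of a gene among the transcripts of a cell, scaled to a fixed total). A cell was retained when more than 1000 genes had a TPM above 0 and less than 10% of its TPM came from mitochondrial genes, which held for 507 of 602 cells. The remaining 422 retained cells, listed with Cd274 at 0, served as the Cd274-negative comparison within the same tumor. The lowest values among the members were 1.16, 1.22, and 1.31 TPM, and the cells just outside the rule were all at 0. Because Cd274 itself chose the cells, its values are given as a description and were not tested.

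Single-cell transcriptomes were profiled from subcutaneous tumors of C57BL/6 mice, with 2 tumors in each of 3 conditions. B16 tumors (B16007 and B16008) grew from the B16-F10 melanoma line and were untreated, and B16PD1 tumors (B16PD1000 and B16PD1002) grew from the same line in mice that received anti-PD1, 200 μg each time, 5, 8, and 11 days after implantation. R499 tumors (R499015 and R499016) were untreated and grew from a melanoma line derived from a B16 tumor that had relapsed after radiation and anti-CTLA4. All tumors were harvested on day 15, cells negative for the leukocyte antigen CD45 were sorted, and full-length libraries were made with Smart-seq on the ICELL8 system. Each condition is 1 cell line in 2 mice, and the tumor, not the cell, was the replicate. Each column name holds a pair of numbers, taken here as a well position, and no pair occurred in more than 1 cell. Doublets were not called.

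Cd274 encodes PD-L1, the ligand through which a cell engages the receptor PD-1 on T cells and restrains them. In melanoma cells, transcription of the gene is raised by interferon gamma, whose receptor (Ifngr1, Ifngr2) activates the kinases Jak1 and Jak2 and, downstream of them, the transcription factor Irf1, which binds the Cd274 promoter. The same route raises genes of MHC class I presentation, interferon-inducible GTPases, and chemokines. The PD-L1 protein is further held at the membrane by Cmtm6 and removed through ubiquitin ligases, steps that transcript levels do not report.

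The mouse Cd274 gene (ENSMUSG00000016496) lies at chr19:29367455-29388095 on the plus strand of GRCm38. Its promoter is printed beside those of B2m and H2-K1, which encode the light chain and a heavy chain of MHC class I and are textbook targets of the same interferon route, so that the shared element can be seen. Each sequence covers the 250 bases before the RefSeq transcription start (build GRCm38.p6), read 5′ to 3′ along the gene, and capitals mark matches to the IRF element AANNGAAA on either strand.
Cd274, chr19:29367188-29367437, plus strand: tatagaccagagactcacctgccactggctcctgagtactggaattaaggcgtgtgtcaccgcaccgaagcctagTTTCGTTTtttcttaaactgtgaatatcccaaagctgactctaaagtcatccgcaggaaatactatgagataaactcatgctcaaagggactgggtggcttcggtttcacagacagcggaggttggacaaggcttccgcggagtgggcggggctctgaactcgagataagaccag
B2m, chr2:122147437-122147686, plus strand: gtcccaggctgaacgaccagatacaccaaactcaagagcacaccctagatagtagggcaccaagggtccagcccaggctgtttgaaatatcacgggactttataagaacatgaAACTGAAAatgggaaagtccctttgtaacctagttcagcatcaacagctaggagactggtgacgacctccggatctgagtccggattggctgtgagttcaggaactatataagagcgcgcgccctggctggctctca
H2-K1, chr17:34000348-34000597, minus strand: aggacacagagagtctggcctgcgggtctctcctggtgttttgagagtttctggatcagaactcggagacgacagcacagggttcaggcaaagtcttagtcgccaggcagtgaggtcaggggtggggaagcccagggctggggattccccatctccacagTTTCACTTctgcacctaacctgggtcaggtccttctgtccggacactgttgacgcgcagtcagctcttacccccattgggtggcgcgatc
Each of the 3 windows held 1 match to AANNGAAA. It lay at bases -175 to -168 from the start in Cd274, on the opposite strand, at -137 to -130 in B2m, and at -90 to -83 in H2-K1, again on the opposite strand. Of 32851 promoters of the same length, 21.3% held such a match. The GAS element of interferon gamma targets (TTCNNNGAA, in 7.02% of promoters) and the AP-1 element (TGANTCA, in 6.75%) had no match in these windows. A kappaB motif was also searched and is not reported here. Plgrkt, a plasminogen receptor gene on the minus strand, ends its annotated interval at position 29367390 of chromosome 19, inside the window printed for Cd274.

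The label of melanoma cell was checked against marker genes. Tyrp1, Dct, Tyr, and Slc45a2, which make or load melanin, and the melanosome proteins Pmel, Mlana, and Gpnmb were above 0 in all 85 members. The lineage factors Mitf, Pax3, and Sox10 were above 0 in 81, 79, and 64 members. A member had between 9 and 16 of the 17 melanocyte lineage genes above 0, with a median of 13, and their summed level ranged from 10735 to 39649 TPM. Of 29 immune markers, 20 were at 0 in every member, including Ptprc (CD45), Cd3e, Cd8a, Nkg7, Adgre1, and Itgam. The other 9 were each above 0 in 1 to 5 members. Cd79a was above 0 in 5 members and 21 of 422 negative cells, Laptm5 in 3 and 4, C1qb in 3 and 2, and Ctss in 3 and 7. Of the members, 67 of 85 had none of the 29, 4 had 2, and none had more, against 348 of 422 negative cells with none and 15 with 2 or more. The summed level ranged from 0 to 232 TPM in members and from 0 to 44251 TPM in negative cells, with medians of 0 in both, and the most markers in a negative cell was 16. Of 16 stromal and epithelial markers, 11 were at 0 in every member, including Col1a1, Pecam1, Cdh5, Krt5, and Krt14. Lum was above 0 in 4 members and 3 negative cells, Acta2 and Pdgfrb in 2 and 6 each, Dcn in 1 and 5, and Col3a1 in 1 and 2. Of the members, 77 of 85 had none of the 16 and 2 had 2, against 398 and 1 of 422 negative cells. The highest summed level was 144 TPM in members and 58 TPM in negative cells.

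Members occurred in every tumor. They made up 20 of 91 retained cells in B16007 (22%, 95% Wilson interval 14.7 to 31.5), 5 of 86 in B16008 (5.81%, 2.51 to 12.9), and 9 of 86 in B16PD1000 (10.5%, 5.6 to 18.7). In B16PD1002 they were 13 of 88 (14.8%, 8.84 to 23.7), in R499015 23 of 81 (28.4%, 19.7 to 39.0), and in R499016 15 of 75 (20.0%, 12.5 to 30.4). The order from the highest share was R499015, B16007, R499016, B16PD1002, B16PD1000, and B16008. The intervals of all neighbors in this order overlap, and the B16 tumors held the second highest and the lowest share. The interval of B16008 lay below those of B16007 and R499015, and that of B16PD1000 below that of R499015. The intervals cover counting error only. Over all tumors the share was 16.8% (13.8 to 20.3).

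The level of Cd274 within members was broad in each tumor. The lowest, median, and highest values were 3.21, 19.9, and 69.6 TPM in B16007, 1.22, 20.4, and 85.1 TPM in B16008, and 1.75, 27.7, and 59.5 TPM in B16PD1000. They were 1.98, 18.3, and 141 TPM in B16PD1002, 1.16, 24.8, and 85.1 TPM in R499015, and 1.31, 14.8, and 83.4 TPM in R499016. The medians lay within a narrow range compared with the spread inside a tumor, and the ranges of all 6 tumors overlap. Of the 85 members, 63 had at least 10 TPM, 15 had at least 50 TPM, and 1 had more than 100 TPM.

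**Figure D1:**
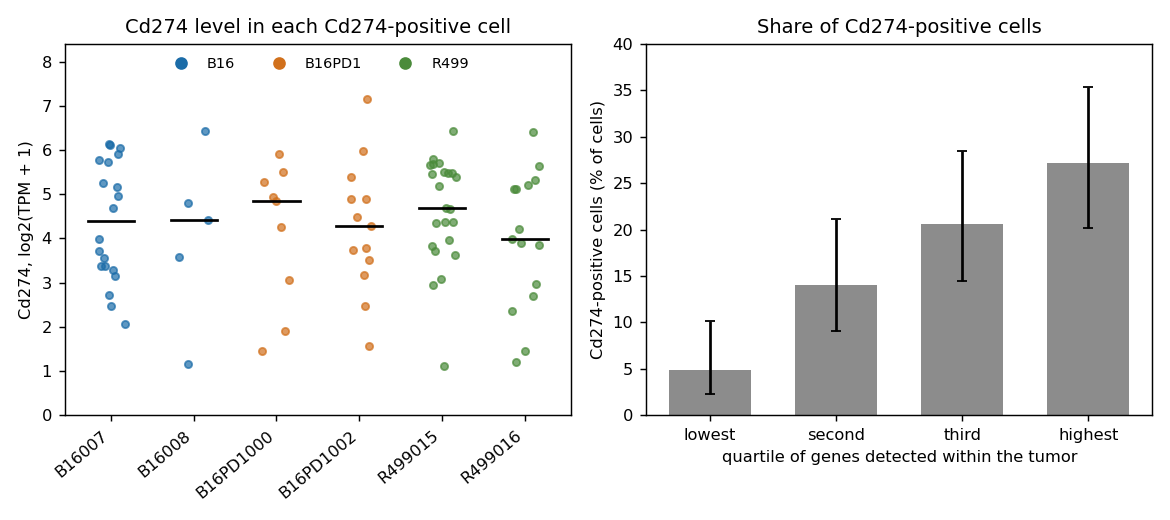
Left, Cd274 level of each of the 85 Cd274-positive cells as log2(TPM + 1) by tumor, with the median of the tumor as a line. Right, percent of retained cells that were Cd274-positive by quartile of the number of genes detected within the tumor, with 95% Wilson intervals, which climbs from 4.84% in the lowest to 27.1% in the highest quartile. Cells of all tumors are pooled on the right, the intervals cover counting error only, and the climb was not seen in every tumor.

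Members had more genes detected than negative cells, where a gene is detected at a TPM above 0 and Cd274 is not counted. The mean number was 4178 in members and 3640 in negative cells of B16007, 4236 and 3451 in B16008, and 3937 and 3769 in B16PD1000. It was 4172 and 3671 in B16PD1002, 4149 and 3007 in R499015, and 4148 and 3283 in R499016. Members were higher in all 6 tumors, by 667 ± 338 genes (SD, n = 6, exact two-sided sign-flip permutation test, p = 0.031, the smallest that 6 tumors can give). A rule on detecting 1 gene favors cells with more genes detected, so this test cannot show a trait particular to Cd274. No other gene was used as a rule for comparison. In members the means lay close together across tumors, and it was in the negative cells that the tumors differed more. Pooled over the tumors, the share of members followed this number: 6 of 124 cells (4.84%) in the lowest quartile of genes detected within a tumor, 18 of 128 (14.1%), 26 of 126 (20.6%), and 35 of 129 (27.1%) in the highest. The median Cd274 level of members was 33.8, 33.1, 32.4, and 10.8 TPM in these quartiles, so members of the richest cells had the lowest values. Within single tumors the share rose at each step in R499015 and R499016 and never fell in B16PD1002. In B16007 it fell from 9 to 6 of 23 cells between the third and highest quartiles. In B16PD1000 it was 1 of 21 in the lowest and 1 of 22 in the highest quartile, and in B16008 0 of 21 in the third. Since TPM holds no read numbers, depth in reads is unknown, and a negative cell can be a cell whose Cd274 transcripts were not captured. More transcripts in a cell and deeper sampling of it cannot be told apart here.

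**Figure D2:**
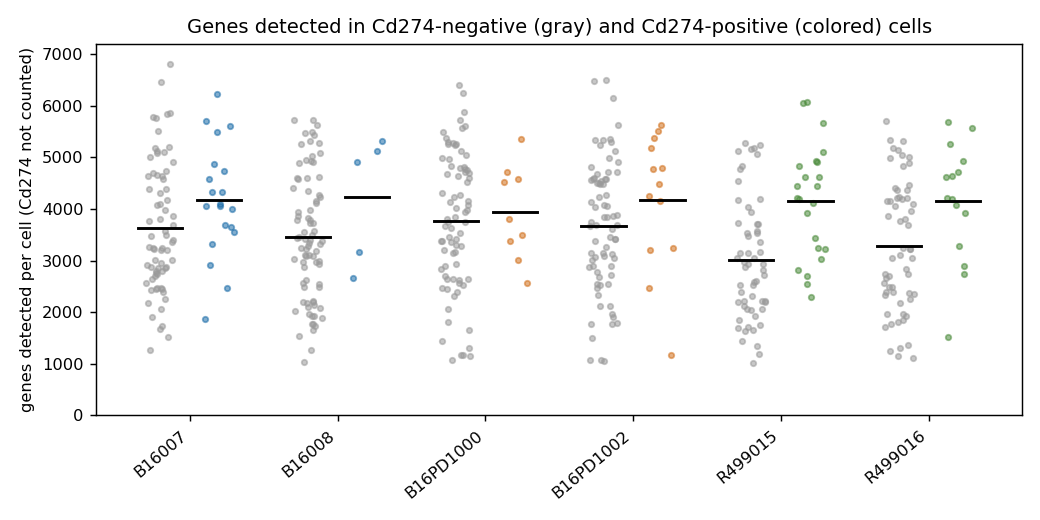
Number of genes detected per retained cell in Cd274-negative cells (gray) and Cd274-positive cells (colored by condition) of each tumor, with means as lines. The mean of the positive cells is the higher in each of the 6 tumors, by 168 genes in B16PD1000 and 1142 genes in R499015 at the extremes.

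Members and negative cells were therefore compared after matching. For each member, the 5 negative cells of the same tumor nearest in genes detected were taken, which brought the means to 4170 genes against 4178 in B16007 and to 4060 against 4149 in R499015, the widest remaining gap. For each gene and tumor, the mean log2(TPM + 1) of the matched negative cells was subtracted from that of the members to give the difference, and the 6 differences were tested against 0 with limma. On this scale the change of a gene with low values is understated. Mitochondrial share, a sign of damaged cells, differed by -0.135 percentage points (SD 0.832, n = 6, lower in 4 tumors, exact permutation p = 0.75) after matching. The number of immune markers per cell differed by -0.110 (SD 0.255, n = 6, exact permutation p = 0.4375) and that of melanocyte genes by 0.0237 (n = 6, exact permutation p = 0.875), both less than the spread between tumors.

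Across 11263 genes tested, Cd274 left out, the matched comparison called 0 genes at an adjusted p under 0.05 (limma, Benjamini-Hochberg). At an unadjusted p under 0.05 there were 630 genes (5.59%), of which 333 (2.96%) were higher and 297 (2.64%) lower in members. In all 6 tumors 144 genes (1.28%) were higher and 179 (1.59%) lower. The median difference of all genes was 0.01, and 52.7% of genes lay above 0. These shares of all genes are the background for the counts of each gene list below. Without matching, against all negative cells of the tumor, 32 genes (0.284%) were called, 31 higher (0.275%) and 1 lower (0.00888%), and 2208 (19.6%) had an unadjusted p under 0.05, of which 2161 (19.2%) were higher and 47 (0.417%) lower. In all 6 tumors 844 genes (7.49%) were then higher and 83 (0.737%) lower. The median of all genes then stood at 0.21 and 80.8% of genes lay above 0. Among the 32 were Rps12 and Ndufa5, a ribosomal and a complex I protein gene, and Casp4, an inflammatory caspase, with differences of 2.11, 1.48, and 0.91. The same 3 genes had differences of 1.05, 0.33, and 0.74 against matched cells. The median difference of the 31 higher genes was 1.39 without and 0.68 with matching, the size became smaller for 31 of the 32, and 25 kept an unadjusted p under 0.05. The gene called lower was the polyubiquitin gene Ubb, with a difference of -0.38 before and -0.17 after matching.

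**Figure D3:**
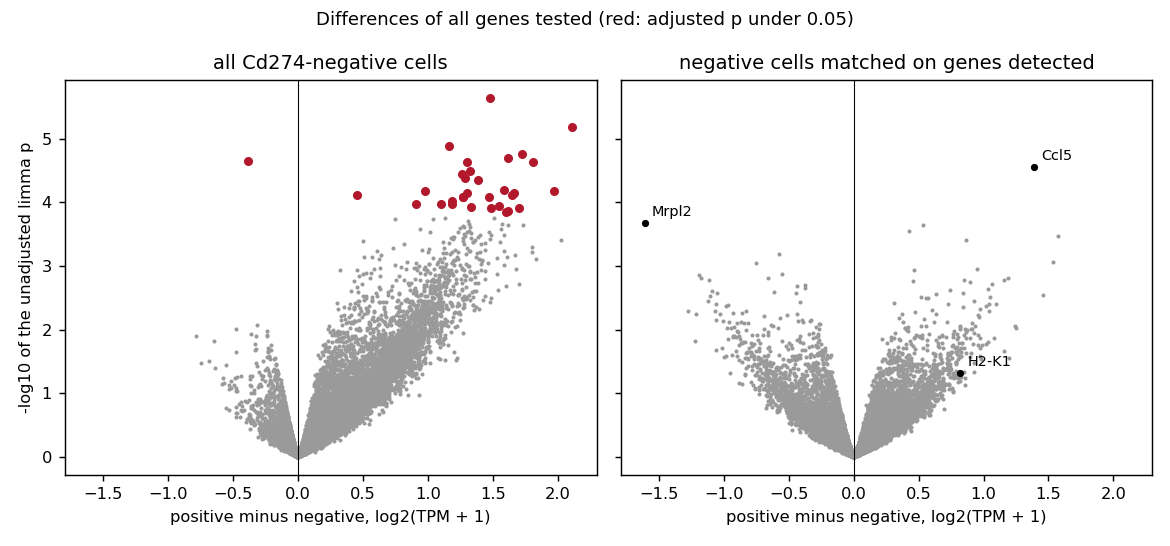
Difference between Cd274-positive and Cd274-negative cells in log2(TPM + 1) against -log10 of the unadjusted limma p for 11263 genes, with all negative cells (left) and with negative cells matched on genes detected (right). Red points, 32 on the left and 0 on the right, have an adjusted p under 0.05, and the cloud is centered at 0.21 on the left and 0.01 on the right.

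Ccl5, a chemokine that attracts T cells and is made by many cells after interferon or NF-kappaB signals, had the smallest p of the matched comparison. Its mean log2(TPM + 1) in members and matched negative cells was 2.30 and 0.25 in B16007, 1.84 and 0 in B16008, and 1.58 and 0.28 in B16PD1000. It was 2.34 and 0.67 in B16PD1002, 1.98 and 0.48 in R499015, and 0.41 in both groups in R499016. Members were higher in 5 tumors and level with the negative cells in R499016. The difference was 1.39 (SE 0.24, adjusted p = 0.317), and without R499016 it was 1.69 (adjusted p = 0.0119). Over all alternatives tried it ranged from 0.85 to 1.95, with adjusted p-values from 0.0119 to 0.921. Ccl5 was above 0 in 19 of 85 members, namely 5 of 20 in B16007, 1 of 5 in B16008, 2 of 9 in B16PD1000, 3 of 13 in B16PD1002, 7 of 23 in R499015, and 1 of 15 in R499016, against 24 of all 422 negative cells (5.69%). The highest member value was 3879 TPM, in B16007. Since T and myeloid cells also express Ccl5, the difference was computed without cells that had 2 or more immune markers, where it was 1.42 (adjusted p = 0.414).

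The other genes with the 10 smallest p-values among higher genes all missed the threshold, with adjusted p-values of 0.736 or 0.877. Vamp5, a vesicle SNARE protein, had means in members of 5.47, 6.05, 4.28, 3.71, 5.45, and 4.76 in B16007, B16008, B16PD1000, B16PD1002, R499015, and R499016. In matched negative cells of the same tumors they were 2.80, 1.72, 3.08, 2.60, 4.64, and 3.98. Members were the higher in each tumor, with the widest gap in B16008 and a difference of 1.54 (SE 0.38). Phf7, a PHD finger protein, had a difference of 0.87 (SE 0.19, higher in 6 of 6 tumors). It was above 0 in 20 members (23.5%) and 6.35% of matched negative cells. Vrk3, of the VRK kinase family, had a difference of 1.19. Ndufaf1, an assembly factor of respiratory complex I, and Neurl2, an adaptor of ubiquitin ligases, had differences of 1.16 and 0.95. Each of these genes was higher in 6 of 6 tumors. Tmed10-ps, a processed pseudogene that can share reads with Tmed10, had a difference of 1.57 and is uncertain for that reason. Ccdc73, Zfp964, and Hexdc were rarely detected, in 7.06%, 10.6%, and 10.6% of members, with differences of 0.53, 0.43, and 0.46.

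Among lower genes, Mrpl2, a protein of the large mitochondrial ribosomal subunit, had the smallest p. Its means in members were 3.23, 3.31, 3.03, 4.30, 2.99, and 2.34 in the tumors in the same order, and in matched negative cells 4.77, 3.77, 4.02, 4.66, 5.16, and 5.00. Members were lower in every tumor, most of all in the R499 tumors, with a difference of -1.61 (SE 0.34, adjusted p = 0.736), which was -0.58 without matching. Mrps12, of the small mitochondrial subunit, had a difference of -1.19 and was lower in 6 of 6 tumors, and its difference was -0.22 without matching. Polg, the polymerase of mitochondrial DNA, was above 0 in 1 of 85 members (1.18%), 12.9% of matched negative cells, and 31 of all 422 negative cells. Its difference was -0.55. The mediator subunit Med25 and the arginine methyltransferase Prmt2 had differences of -0.75 and -1.12, also lower in 6 of 6 tumors. Dnase2a, Grm8, and Ackr3, all detected in under 5% of members, had differences of -0.57, -0.38, and -0.44. Rpl38 and Tamm41 had differences of -0.66 and -1.18, lower in 5 of 6 tumors, which were -0.07 and -0.21 without matching. All 10 lower genes had smaller differences without matching, where Med25 was at -0.47, Prmt2 at -0.57, Polg and Dnase2a at -0.32, Grm8 at -0.23, and Ackr3 at -0.17.

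**Figure D4:**
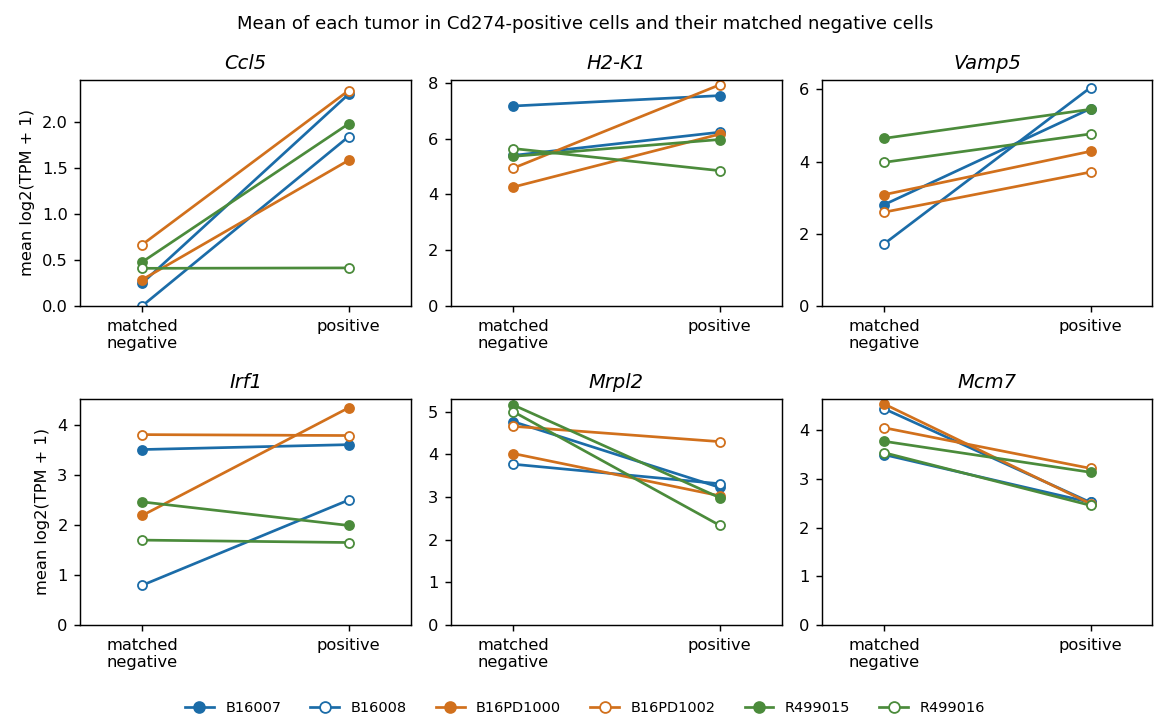
Mean log2(TPM + 1) of 6 genes in matched negative cells and in Cd274-positive cells, with a line for each tumor. Positive cells lie higher for Ccl5 and Vamp5 and lower for Mrpl2 and Mcm7 in all tumors apart from the level line of Ccl5 in R499016, while the lines of Irf1 go both ways and that of H2-K1 runs lower in R499016.

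Of the interferon gamma route that leads to Cd274, 16 of 17 listed genes were tested and 0 passed, with 2 higher and 0 lower at an unadjusted p under 0.05 against 5.59% of all genes. The median difference was -0.04, with 7 genes above 0, and it was 0.13 without B16007 and 0.44 without matching. For Irf1, the factor that binds the Cd274 promoter, the means were 3.60, 2.49, 4.33, 3.78, 1.99, and 1.65 in members, in the order of tumors above, and 3.50, 0.79, 2.19, 3.80, 2.46, and 1.69 in matched negative cells. The groups were close in B16007, B16PD1002, and R499016, members were higher in B16008 and B16PD1000 and lower in R499015, and the difference was 0.21 (SE 0.35, adjusted p = 0.963). Irf1 was above 0 in 43 of 85 members (50.6%), 46.1% of matched negative cells, and 159 of all 422 negative cells (37.7%). A value of 0 can be a transcript that was not captured.

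The receptor chain Ifngr1 and the kinase Jak1 had differences of -0.03 and 0.17. Jak2, which lies beside Cd274 on chromosome 19, was above 0 in 9 members (10.6%), 16.2% of matched negative cells, and 8.29% of all negative cells. It had a difference of -0.23 (SE 0.11, adjusted p = 0.877), lower in 6 of 6 tumors. Stat3, which many cytokines activate, was higher in members in 6 of 6 tumors, with means of 4.87, 4.78, 3.82, 3.73, 3.96, and 3.98 against 4.15, 3.66, 3.74, 2.52, 3.24, and 2.96. Its difference was 0.80 (SE 0.29, adjusted p = 0.877), the largest of the list. Nlrc5, the activator of MHC class I genes, was above 0 in 11 members (12.9%), 5 of them of B16PD1002. It was above 0 in 2.82% of matched and 8 of all 422 negative cells, with a difference of 0.40. The phosphatase Ptpn2, an inhibitor of the route, had a difference of -0.11.

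The interferon-inducible GTPases and effectors had a median difference of 0.30 (0.60 without matching), with 33 of 37 genes above 0 and 4 below, against 52.7% of all genes above 0. None of the 37 passed the adjusted threshold or was higher in all 6 tumors. At an unadjusted p under 0.05 there were 2 higher and 1 lower, against 2.96% and 2.64% of all genes. The mean difference over the list was -0.10 in B16007, 0.56 in B16008, 0.48 in B16PD1000, 1.81 in B16PD1002, -0.004 in R499015, and -0.25 in R499016. It was thus large in B16PD1002 and at or below 0 in 3 tumors, and without B16PD1002 the median difference of the list was -0.01. Single members were set against all negative cells of their tumor, without matching. In B16PD1002, 4 of 13 members lay above the highest of 75 negative cells on this list, at up to 7.98 against 5.21 in mean log2(TPM + 1). The lowest member there stood at 0.48, and members had a mean of 4172 genes detected against 3671 in these negative cells. Elsewhere 1 of 5 members in B16008 and 1 of 9 in B16PD1000 lay above the highest negative cell, and 0 in the other 3 tumors. In R499016 the highest member was at 2.61 and the highest negative cell at 6.23.

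Within that list, Irgm1, a GTPase against intracellular pathogens, had the largest difference at 0.99 (SE 0.37, adjusted p = 0.877). Its means were 5.77, 2.90, 5.83, 5.79, 4.55, and 5.32 in members and 5.94, 1.92, 3.04, 3.83, 4.33, and 3.50 in matched negative cells. Members were higher in 5 tumors and slightly lower in B16007. The GTPases Igtp, Gbp7, and Tgtp1 had differences of 0.69, 0.62, and 0.59, and the antiviral synthetase Oas1a 0.68. The T cell chemokine Cxcl10 was above 0 in 46 of 85 members (54.1%), 53.9% of matched negative cells, and 208 of all 422 negative cells. Its difference was 0.12. The most abundant members of the list, Ifi27, Lgals3bp, and Bst2, had differences of 0.37, 0.07, and -0.27.

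MHC class I presentation genes had a median difference of 0.12 (0.41 without matching), with 14 of 20 above 0, and 0 passed. At an unadjusted p under 0.05 there were 4 higher and 1 lower, against 2.96% and 2.64% of all genes, and 52.7% of all genes lay above 0. H2-K1 had means of 7.55, 6.24, 6.17, 7.94, 5.98, and 4.86 in members and 7.18, 5.40, 4.27, 4.94, 5.37, and 5.65 in matched negative cells, in the same order of tumors. Members were higher in 5 of 6 tumors, by most in the B16PD1 tumors, and lower in R499016. The difference was 0.82 (SE 0.38, adjusted p = 0.877), and H2-K1 was above 0 in 76 of 85 members (89.4%) and 81.2% of matched negative cells. B2m, above 0 in all 85 members, had means of 12, 10.57, 10.38, 12.05, 11.49, and 10.69 against 11.63, 9.15, 9.63, 10.62, 11.85, and 10.52. It was higher in 5 tumors and lower in R499015, with a difference of 0.40 (SE 0.19, adjusted p = 0.877). These are the 2 genes whose promoters are printed beside that of Cd274.

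The other heavy chain gene H2-D1 and the nonclassical H2-M3 had differences of 0.43 and 0.51, and the proteasome activator Psme2 and the immunoproteasome subunit Psmb8 0.74 and 0.51. The transporter genes Tap1 and Tap2 were above 0 in 9.41% and 10.6% of members, with differences of 0.13 and 0.24. Calr, a chaperone that loads class I molecules and folds many other proteins, had a difference of -0.55 (SE 0.20, adjusted p = 0.877) and was lower in 6 of 6 tumors, and its partner Canx had -0.13. The list difference was 0.22, 0.32, 0.29, 0.87, -0.11, and -0.15 in the 6 tumors, above 0 in the B16 and B16PD1 tumors and below 0 in both R499 tumors, and without B16PD1002 the median difference of the list was 0.03. Of 6 MHC class II genes, 5 lay above 0 and 0 passed, with a median difference of 0.23, and Cd74 and H2-Aa, the invariant chain and an alpha chain, were above 0 in 27.1% and 16.5% of members. Its list difference was 1.28 in B16PD1002 and between -0.49 and 0.28 in the other tumors.

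Other ligands read by T cells, natural killer cells, or macrophages showed no call among 14 tested, with 8 above 0 and a median difference of 0.05. Pdcd1lg2, which encodes PD-L2, the second ligand of PD-1, was at 0 in all 507 retained cells, and Cd80 and Cd86 did not pass the filter on detection. Lgals3, a galectin, had a difference of 0.63 (SE 0.31), and Lgals9, the ligand of TIM-3, 0.06. The costimulatory ligand Tnfsf9 and the poliovirus receptor Pvr, a ligand of TIGIT, had differences of 0.44 and 0.37, and Cd47, a signal against phagocytosis, 0.19. All of these missed the threshold, with adjusted p-values between 0.877 and 0.990.

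Genes that handle the PD-L1 protein had a median difference of 0.00, with 10 of 20 above 0 and 0 called. Cmtm6, which keeps PD-L1 at the membrane, was above 0 in 34.1% of members and 36.9% of matched negative cells. It had a difference of -0.17 (SE 0.36, adjusted p = 0.974). The deubiquitinase subunit Cops5 and the ligase scaffold Cul3 had differences of -0.34 and -0.59, and the glycosylation subunits Stt3a and Stt3b -0.04 and 0.46. Of 18 transcription factors reported at the Cd274 gene, 14 lay above 0 with a median of 0.10, and 0 passed. Atf3, a stress-induced factor, had a difference of 0.80 (SE 0.28, adjusted p = 0.877) and Fosl2, an AP-1 subunit, 0.39, both higher in 6 of 6 tumors. Myc and Hif1a had differences of 0.19 and 0.55, and the NF-kappaB subunits Rela and Nfkb1 -0.03 and 0.03.

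The NF-kappaB response list, which also holds Ccl5, had a median of -0.15, with 6 of 13 above 0, and it was 0.07 without R499016. Apart from Ccl5, Tnfaip2 had a difference of 0.98 (SE 0.30), while the feedback inhibitors Nfkbia and Tnfaip3 had -0.66 and -0.29. Immediate early genes had a median of 0.13, with 13 of 16 above 0 and 0 called. The hypoxia and glycolysis list had a median of 0.19 (0.44 without matching), with 16 of 17 above 0, 2 at an unadjusted p under 0.05, and 0 called. Of all genes, 52.7% lay above 0 and 5.59% were under that p. P4ha1, a collagen prolyl hydroxylase subunit, and Hk2, a hexokinase, had differences of 0.82 (SE 0.28) and 0.67 (SE 0.29), while the abundant enzymes Aldoa, Ldha, and Eno1 had 0.16, 0.08, and 0.05. The hypoxia list difference was between 0.40 and 0.55 in the B16 and B16PD1 tumors, -0.07 in R499015, and 0.13 in R499016, and without R499015 the median difference of the list was 0.46.

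Genes of S phase lay mostly below 0. Of 28 genes, 26 were lower and 2 higher in members, against 5333 of all 11263 genes below 0. The median difference was -0.26 (-0.10 without matching), 3 genes were lower and 0 higher at an unadjusted p under 0.05, where 2.64% of all genes were lower, and 0 were called. Mcm7, a subunit of the replicative helicase, had means of 2.52, 2.52, 2.49, 3.22, 3.14, and 2.46 in members and 3.50, 4.44, 4.54, 4.05, 3.77, and 3.54 in matched negative cells. Members were lower in each of the 6 tumors, with a difference of -1.05 (SE 0.30, adjusted p = 0.877). Mcm7 was named after the values were seen, as the gene of this list with the smallest p. It was above 0 in 47 of 85 members (55.3%), 66.6% of matched negative cells, and 255 of all 422 negative cells. The histone chaperone Nasp and the replication clamp Pcna had differences of -0.90 and -0.71, lower in 5 of 6 tumors. The list difference was 0.06 in B16007, -0.54 in B16008, -1.04 in B16PD1000, -0.53 in B16PD1002, 0.13 in R499015, and -0.87 in R499016. It was below 0 in 4 tumors, and B16007 and R499015, which hold the most members, stood slightly above 0. Of 30 G2/M genes, 21 lay below 0 with a median of -0.09, which turned to 0.23 without matching and to 0.02 without B16PD1000. The list difference was -0.07 in B16007, -1.04 in B16008, -0.82 in B16PD1000, -0.09 in B16PD1002, 0.31 in R499015, and 0.11 in R499016, above 0 in both R499 tumors. The spindle checkpoint kinase Bub1b had -0.82 and Aurkb -0.65, both lower in 6 of 6 tumors.

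Melanocyte lineage genes had a median difference of 0.06, with 12 of 16 above 0 and 0 called. The pigment genes Tyrp1, Dct, Pmel, and Mlana had differences of -0.04, 0.11, 0.01, and 0.08, with SE between 0.09 and 0.11. Gpnmb was higher in 6 of 6 tumors with a difference of 0.21 (SE 0.12). In the dedifferentiation and mesenchymal list the median was 0.01, with 8 of 13 above 0. Zeb2, a factor of the differentiated state in melanocytes, had a difference of -1.10 (SE 0.32, adjusted p = 0.877, lower in 5 of 6 tumors), and Snai2, Fn1, and Cd44 had 0.49, 0.55, and 0.29. Immune and stromal markers that could be tested were detected in few cells, 9 and 4 genes with medians of -0.13 and 0.04. The 18 ubiquitous reference genes had a median of 0.07, with Gapdh at 0.06 (SE 0.07) and Ftl1 at 0.09 (SE 0.06).

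The neighbors of Cd274 on chromosome 19 had a median difference of 0.03, with 10 of 15 above 0 and 0 called. Plgrkt, whose start faces that of Cd274, was higher in members in 6 of 6 tumors, with a difference of 0.79 (SE 0.30, adjusted p = 0.877). Plgrkt was above 0 in 54 of 85 members (63.5%), 54.4% of matched negative cells, and 198 of all 422 negative cells. Plpp6 had a difference of 0.35, and Mlana and Ak3 0.08 and 0.03.

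**Figure D5:**
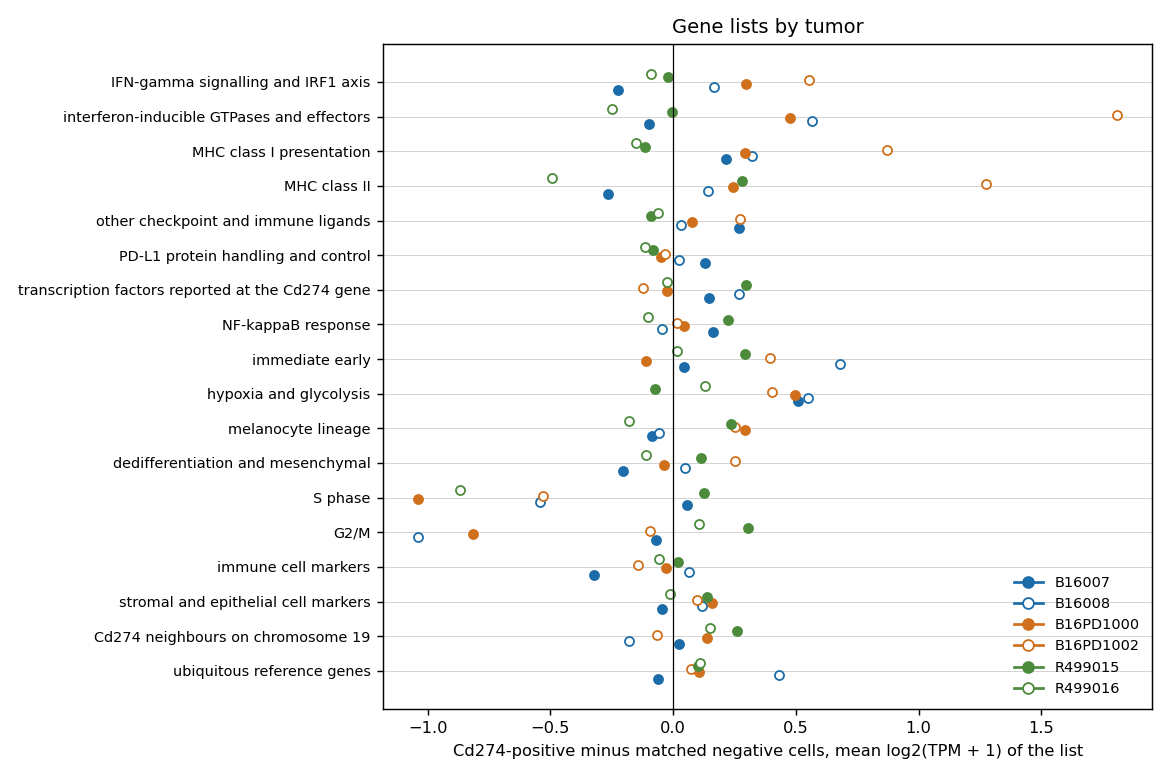
Mean difference of each of 18 gene lists between Cd274-positive cells and matched negative cells in log2(TPM + 1), with a point for each tumor. Interferon-inducible effectors reach 1.81 in B16PD1002 and lie between -0.25 and 0.56 in the other tumors, and S phase genes lie below 0 in 4 tumors.

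Whether members differ from negative cells to an unequal degree in the 3 conditions was tested on the same 6 differences. The contrasts share tumors with each other, 2 tumors per condition were available, and all used 1 estimate of the spread of a gene. For B16PD1 minus B16, 0 of 11263 genes were called (limma), with 630 (5.59%) at an unadjusted p under 0.05. Cmpk2, an interferon-inducible nucleotide kinase, had the smallest p, with differences of -1.05 in B16007, -0.27 in B16008, 1.23 in B16PD1000, and 2.88 in B16PD1002, a contrast of 3.10 (SE 0.55, adjusted p = 0.486). Oasl1, an interferon-inducible regulator of Irf7 translation, had a contrast of 1.40 (SE 0.27). For R499 minus B16PD1, 0 genes were called, with 593 (5.27%) at an unadjusted p under 0.05. Irf7, the amplifier of type I interferon genes, had differences of 2.07 in B16PD1000, 2.12 in B16PD1002, -0.25 in R499015, and -0.19 in R499016, a contrast of -2.33 (SE 0.43, adjusted p = 0.311). Fam229b and the interferon-inducible Mndal had contrasts of -2.67 and -2.12.

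Interferon-inducible effectors were the list with the widest gap between conditions. Between B16PD1 and B16 their median contrast was 1.31, with 34 of 37 genes above 0. At an unadjusted p under 0.05 there were 17, against 5.59% of all genes. Between R499 and B16PD1 the median contrast was -1.48, with 34 below 0 and 18 at an unadjusted p under 0.05, against 5.27% of all genes. None passed the adjusted threshold, and both medians rest on the 2 B16PD1 tumors, of which B16PD1002 is the higher. The mean list difference of B16008, at 0.56, lay above the 0.48 of B16PD1000. Tumors were weighted by their members, and B16008, with 5, had the least weight. In B16PD1000, 4 of 9 members lay above the median of its negative cells on this list, and the highest member stood at 4.93. For R499 minus B16 the median was -0.20, with 1 gene in each direction at an unadjusted p under 0.05, against 6.1% of all genes.

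For R499 minus B16, 1 gene (0.00888%) was called and 687 (6.1%) had an unadjusted p under 0.05. It was AC134548.1 (chr15:99706562-99706813), a processed pseudogene, with differences of 1.84 in B16007, 1.10 in B16008, -1.12 in R499015, and -0.85 in R499016, a contrast of -2.70 (SE 0.36, adjusted p = 0.0352). It was above 0 in 4 of 20 and 1 of 5 members of the B16 tumors and in 1 of 23 and 0 of 15 members of the R499 tumors, so the call rests on few cells. The call was lost with either other pseudocount, without matching, with regression, with unweighted tumors, without the trend, with no filter on genes, under each stricter rule for cells or members, and without any 1 of the tumors. It was kept with 10 matched cells, the gene was not tested under the filter of 10% of cells, and adjusted p-values ranged from 0.0325 to 1. A pseudogene can share reads with its parent gene, and the value is uncertain for that reason. Asf1a, a histone chaperone, and Kctd17 had contrasts of 2.13 and -1.75 (adjusted p = 0.743 for both).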

How the data were processed

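Per the labels, single-cell RNA was measured in CD45-negative cells of 6 tumors. The authors deposited TPM values (gene expression scaled to a fixed total per cell) of 25215 genes in 602 cells, of which 95 did not meet the rule on cells. The submitters' processing notes name STAR, RSEM, GATK, and the build mm10, with versions not given in the sources used here. Read numbers are unknown, and the median retained cell had 3547 genes detected. Column names give the tumor, not the replicate number of the labels.

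The 11263 genes tested were those, other than Cd274, detected in over 5 retained cells. Differences per tumor, with negative cells drawn with replacement, were fitted with limma 3.58.1 in R 4.3.3 (intercept alone, or conditions), weighted by the number of members, eBayes with trend, two-sided, Benjamini-Hochberg, threshold 0.05. A pseudocount of 1 was added. Other steps ran in Python 3.11.15 with scipy 1.17.1 and pandas 2.3.3, and figures were drawn with matplotlib 3.10.9 and numpy 2.4.6. The fit was tested on simulated data. Positions are from GENCODE vM21 (GRCm38), promoters from RefSeq (GRCm38.p6). Ccl5 had no promoter entry.

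The members and the 18 lists were chosen with earlier results of these data known. Named genes are Cd274, 10 others chosen by role, the 10 smallest p-values in each direction, the 3 most abundant genes of each list, and the 3 smallest p-values per contrast. Other genes were named after their values were seen, and some genes are not reported here. P-values measure the spread between tumors of separate mice. Alternatives were other pseudocounts (0.1 and 10), filters on genes, matching (none, 10 cells, or regression), unweighted tumors, limma without trend, stricter rules for cells and members, and leaving out each tumor.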

Additional observations from a re-analysis of the deposited data

Results flagged for a closer look

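Over 51 sets of 6 tumor values, 3 held a tumor that stood apart from the other 5 by Dixon's criterion, and chance gives such a tumor in about 1 in 20 sets. Ccl5 was level between members and matched negative cells in R499016, with a difference of 0.00458 against 1.3 to 2.05 in the other tumors. The ubiquitous reference genes had a list difference of 0.43 in B16008, the tumor with 5 members. The number of immune markers per cell was lower by 0.61 in members of B16007 (a difference of -0.61, from 0.1 marker per member and 0.71 per matched negative cell).

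AC134548.1 was the 1 gene that passed the threshold in a contrast between conditions, at -2.70 for R499 minus B16 (limma, adjusted p = 0.0352). It was above 0 in 5 members of the B16 tumors and 1 member of the R499 tumors, and the call was lost in most alternatives.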

How the results depend on the processing

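For the comparison of members with negative cells across all genes, 0 genes were called in the reported fit, 32 without matching, and 0 to 1 when each tumor was left out (1, Ccl5, without R499016). The other alternatives called 0. For R499 minus B16, where 1 gene was called, 0 genes were called with a pseudocount of 0.1 or 10, with a filter of 10% of cells, no filter on genes, no matching, regression on genes detected, unweighted tumors, members of at least 10 TPM, no cells with 2 or more immune markers, more than 2000 genes detected, or limma without trend, and 0 to 1 when each tumor was left out (1, Dpf1 and not AC134548.1, without B16007). For B16PD1 minus B16 and R499 minus B16PD1, the filter of 10% of cells called 2 genes each (among them Cmpk2 in both), and leaving out each tumor called 0 to 1. The direction of AC134548.1 was the same in all alternatives that gave a value.

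The difference in genes detected was 466 with cells of more than 2000 genes detected (exact permutation p = 0.0625, higher in 5 of 6 tumors), and 572 to 766 when each tumor was left out, where 5 tumors can give no p below 0.0625. The mitochondrial share was 0.118 percentage points without matching and -0.432 to 0.032 when each tumor was left out. The number of immune markers was 0.0422 without cells of 2 or more markers, and that of melanocyte genes -0.0547 to 0.106 when each tumor was left out.

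Of 89 genes named by the rules above or as the smallest p of a list, 29 changed sign in some alternative, in 78 of 1571 values, and none of these passed a threshold. The further genes given in the text, among them Jak1, Nlrc5, Cxcl10, Rela, Nfkb1, and Hk2, were not checked for a change of sign. Without matching the difference was positive for Ifngr1 (0.455), Cmtm6 (0.159), Ptpn2 (0.662), Bst2 (0.596), Canx (0.0896), H2-DMb1 (0.0528), Stt3a (0.33), Cops5 (0.475), Sod2 (0.521), Ier3 (0.238), Rrm2 (0.271), and Cdk1 (0.355). With regression it was 0.181 for Ifngr1, 0.0282 for Ptpn2, 0.0252 for Hmgb1, -0.109 for Lgals9, 0.0587 for Stt3a, -0.0327 for Fos, -0.0586 for Nfe2l2, and -0.00167 for Dcn. With 10 matched cells it was 0.0306 for Ifngr1, -0.0154 for Lgals9, and 0.081 for Stt3a. With unweighted tumors it was 0.0448 for Ifngr1, 0.205 for Cmtm6, 0.169 for Bst2, -0.0873 for Fos, and 0.133 for Cd79a. With members of at least 10 TPM it was 0.206 for Ifngr1, 0.00395 for Bst2, -0.0416 for H2-Aa and for Cdk4, and 0.0228 for Fcer1g. Without cells of 2 or more immune markers it was 0.0415 for Ifngr1, 0.031 for Cmtm6, 0.0291 for Fcer1g, and 0.0118 for Lyz2. With more than 2000 genes detected Cdk4 was at -0.0168, and with a pseudocount of 0.1 Stt3a was at 0.00681 and Fos at -0.119.

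When each tumor was left out, these ranges crossed 0: Irf1 -0.0174 to 0.465, Ifngr1 -0.238 to 0.141, Cmtm6 -0.417 to 0.147, Myc -0.0878 to 0.417, Ptpn2 -0.314 to 0.165, Lgals3bp -0.108 to 0.319, Bst2 -0.509 to 0.0926, H2-DMb1 -0.626 to 0.0967, Cd74 -0.111 to 0.69, H2-Aa -0.0848 to 0.667, Hmgb1 -0.162 to 0.0153, Lgals9 -0.198 to 0.227, Cdk4 -0.0539 to 0.0801, Stt3a -0.238 to 0.0799, Fos -0.19 to 0.134, Nfe2l2 -0.0891 to 0.256, Sod2 -0.378 to 0.109, Tyrp1 -0.135 to 0.0401, Pmel -0.0462 to 0.0962, Rrm2 -0.312 to 0.0328, Cdk1 -0.688 to 0.16, Cd79a -0.0984 to 0.122, and Ak3 -0.107 to 0.257. Of 321 list medians, 15 moved beyond the spread between tumors, and the immune and stromal lists had no gene under the filter of 10% of cells. The causes were not tested. Members and negative cells were compared within each tumor. No paired analysis was possible because the columns name tumors and not the replicate numbers of the labels, so conditions could not be paired by number. With 5 to 23 members per tumor, a missing call does not show that a gene is equal between the groups.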

Other observations

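Of the 95 cells that were not retained, 9 had Cd274 above 0. They entered no comparison.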
